A study of Mus musculus with 36 samples.

Results

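The genes described here are 8 genes of fat cell formation and lipid storage: Pparg, Cebpa, Fabp4, Adipoq, Lpl, Cd36, Plin1 and Plin2. They were chosen by name, and each was read from the probe set whose platform annotation gives its symbol alone, taking the one with the highest mean over all 36 arrays where a gene had several. In all, 7 of the 8 had such a probe set and were tested, of 18193 genes with a probe set of their own and 14495 genes tested. Plin1 is named only. Levels are the deposited log2 signals, so that a difference of 1 is 2-fold, and levels of different genes are not compared with each other.

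The arrays measured RNA of 6 cell populations sorted by flow cytometry from enzymatically digested thymus of male wild-type C57BL/6J mice aged 1, 3 or 6 months, and no animal was treated. The populations were fibroblasts, dendritic cells positive or negative for Sirpa (Sirpa+ DC and Sirpa- DC), cortical thymic epithelial cells (cTEC), and medullary thymic epithelial cells low (mTEClo) or high (mTEChi) in CD80 and MHC class II. Each population had 2 arrays at each of the 3 ages, giving 18 groups of 2. Sample labels speak of 1 mouse each, while the study design speaks of 2 mice at each age. The populations of an age may therefore come from shared animals, and p-values describe only the spread between these samples. RNA was amplified before hybridization, and no age beyond 6 months was measured. The question put to these genes was whether any population showed early signs of the replacement of thymic tissue by fat that accompanies involution.

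Fat cells form when precursors of the fibroblast lineage switch on the nuclear receptor PPARγ (Pparg) and the transcription factor C/EBPα (Cebpa), which maintain each other and turn on the genes of the mature adipocyte. These include the secreted hormone adiponectin (Adipoq), lipoprotein lipase (Lpl), which frees fatty acids from lipoproteins, the fatty acid transporter CD36, the cytosolic fatty acid carrier FABP4, and perilipins 1 and 2 (Plin1, Plin2), which coat lipid droplets. Several have other settings: Cebpa, Cd36 and Plin2 are also genes of myeloid cells, Fabp4 of capillary endothelium and macrophages, and Plin2 of nearly any cell that stores lipid. Mature medullary epithelium is known for expressing genes of many other tissues at low levels, in part through Aire.

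Promoter sequences are shown for Adipoq, which marked mTEChi, and for Cd36 and Plin2, which were both highest in Sirpa- DC. Each is the 250 bases before an annotated transcript start, from RefSeq on GRCm38.p6, in the direction of transcription. Capitals mark the nuclear receptor half-site AGGTCA or its reverse complement TGACCT, the unit that is repeated, with 1 base between the copies, in the element bound by PPARγ and its partner RXR.
Adipoq (chr16:23146286-23146535, plus strand): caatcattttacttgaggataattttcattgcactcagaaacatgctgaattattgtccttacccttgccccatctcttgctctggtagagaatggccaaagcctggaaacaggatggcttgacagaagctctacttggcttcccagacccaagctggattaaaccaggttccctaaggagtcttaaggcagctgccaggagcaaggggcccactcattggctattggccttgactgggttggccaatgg
Cd36 (chr5:17835897-17836146, minus strand): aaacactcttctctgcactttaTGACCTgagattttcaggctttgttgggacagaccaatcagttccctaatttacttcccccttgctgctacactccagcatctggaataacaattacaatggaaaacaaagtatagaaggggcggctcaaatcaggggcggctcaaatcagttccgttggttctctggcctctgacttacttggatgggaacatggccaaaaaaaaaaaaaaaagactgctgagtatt
Plin2 (chr4:86670060-86670309, minus strand): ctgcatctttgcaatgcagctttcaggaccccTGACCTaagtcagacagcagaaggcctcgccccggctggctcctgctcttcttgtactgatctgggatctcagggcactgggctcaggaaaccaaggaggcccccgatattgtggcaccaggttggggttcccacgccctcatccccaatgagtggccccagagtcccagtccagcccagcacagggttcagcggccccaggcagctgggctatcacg
The half-site begins 228 bases before the start in Cd36 and 218 bases before it in Plin2, in both as TGACCT, and these letters are not in the Adipoq window. Of 32851 mouse promoters of the same length, 14.02% hold the half-site on either strand. The full repeat of 2 half-sites in the same direction, which contains the half-site, was in none of the 8 windows available for 6 of the genes and in 0.03348% of all promoters. The C/EBP core TTGCNNAA, found in 9.564% of promoters, was in the windows of Plin1 and of 1 of the 3 Pparg starts and in no window of Adipoq, Cd36, Plin2 or Cebpa. The other 2 Pparg windows held the half-site, 28 and 9 bases before their starts. A match of letters describes the window and shows no binding. Pparg lies on chromosome 6, Cebpa and Plin1 on 7, Fabp4 on 3 and Lpl on 8.

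All 36 arrays had another array of the same population as their nearest neighbour, and array medians lay between 5.61 and 5.75. Fibroblast arrays held fibroblast markers (8 of 9 above the median of all values, 5.66, in all 6 arrays) and also markers of other cells. All 13 thymocyte markers measured, among them Cd3d, Cd4 and Rag1, were above that median in all 6 fibroblast arrays, and their mean ran between 8.58 and 10.95, against at most 8.35 in any array of the other populations. All 9 mural cell markers were above it too, with means between 8.67 and 10.63. Of 10 endothelial markers, 4 (Pecam1, Cdh5, Tie1 and Cldn5) were below the median in every fibroblast array. Marker means were taken over markers bright enough to test, which leaves out the endothelial Pecam1, Emcn and Tie1 and the macrophage marker Vsig4. In bulk samples such as these, fewer cells of a type and less RNA per cell cannot be told apart.

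Across populations the genes did not move as a block. Calls between populations needed an adjusted p below 0.05 and at least a 2-fold difference, and each population was set against the mean of the other 5. In fibroblasts 4 of 7 genes were called (18.4% of all genes tested were), 1 higher (8.38% of all genes) and 3 lower (9.98%). In Sirpa+ DC 4 were called (16.9% of all genes), 3 higher (6.7%) and 1 lower (10.2%). In Sirpa- DC 5 were called (19.2%), 2 higher (6.2%) and 3 lower (13%). In cTEC 1 was called (16.1%), lower (6.37%), and 1 of 7 is a smaller share than the 16.1%. In mTEClo 3 were called (14.8%), all lower (5.37%), and in mTEChi 3 (19.2%), 2 higher (13.9%) and 1 lower (5.31%). The median difference of the 7 genes was -0.73 in fibroblasts, against -0.04 over all genes tested, and 0.33 in mTEChi, against -0.07 over all genes. No population was the highest for more than 2 of the genes. Only genes brighter than the median of all values on 2 or more arrays were tested, and Adipoq passed through mTEChi alone, so its calls in these counts, the only one in cTEC among them, set dim signals against mTEChi.

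**Figure D1:**
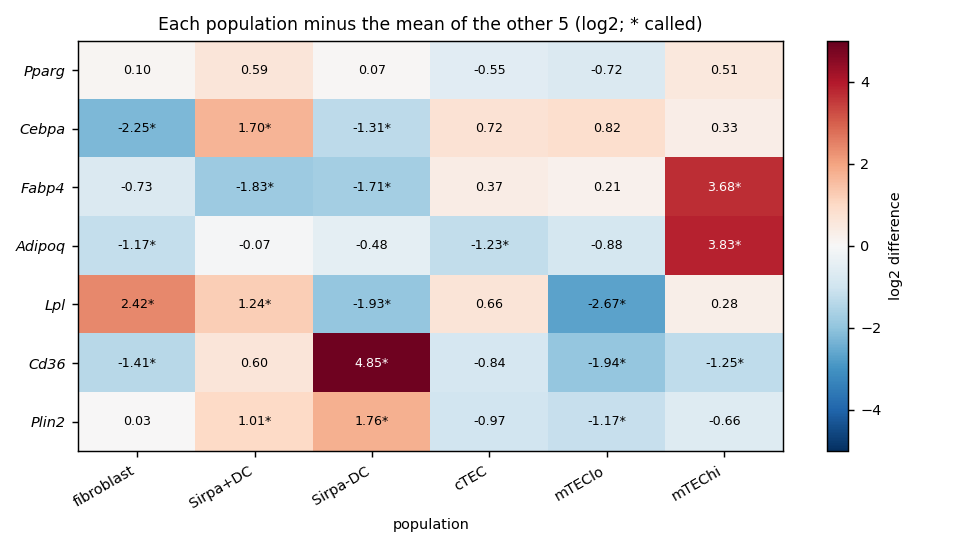
Difference of each population from the mean of the other 5 populations (log2, ages weighted equally, 6 arrays against the rest) for the 7 genes measured; colour and number give the difference, and an asterisk marks those at an adjusted p under 0.05 with at least 2-fold. Cd36 stood at 4.85 in Sirpa- DC, Adipoq and Fabp4 at 3.83 and 3.68 in mTEChi, and Lpl at 2.42 in fibroblasts.

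Pparg, the nuclear receptor that drives adipogenesis, was dim throughout: its probe set was above the median of all values in 7 of 36 arrays. The lowest, median and highest signals were 5.13, 5.54 and 6.97 in Sirpa+ DC, 5.15, 5.74 and 5.81 in mTEChi, and 4.93, 5.35 and 5.72 in fibroblasts. They were 4.95, 5.27 and 5.67 in Sirpa- DC, 4.25, 4.78 and 5.10 in cTEC, and 4.36, 4.68 and 4.79 in mTEClo. The ranges of all populations but 1 reached into that of fibroblasts, and only mTEClo lay below it entirely. No population was called against the others, with differences between -0.72 and 0.59. In the order of population means, Sirpa+ DC, mTEChi, fibroblasts and Sirpa- DC did not differ between neighbours beyond the spread. The same held for cTEC and mTEClo, while Sirpa- DC lay 0.52 ± 0.20 (SE) above cTEC. Every cTEC signal was below the median of all values. Here and for the genes below, neighbours were picked by sorting the means of the same data, so comparisons between them are descriptions. Between the medullary subsets Pparg was 2.04-fold higher in mTEChi than in mTEClo (1.03 ± 0.20, limma, adjusted p = 0.000111). In that comparison 4 of 7 genes were called (19.6% of all genes), all higher (11.8%). The 4 include Adipoq, which was tested only because mTEChi passed the filter, so that its call there is no evidence. That Pparg difference was at the 2-fold limit: it was 0.98 with quantile normalization, 0.99 with equal array medians and 0.87 with the control 3′ minus 5′ signal as a term, each under 2-fold.

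Cebpa, the partner transcription factor, was highest in Sirpa+ DC and lowest in fibroblasts. Its signals ran from 8.64 through a median of 9.35 to 9.61 in Sirpa+ DC, and 5 of the 6 arrays were above every array of the other populations. In fibroblasts they were 5.35, 5.76 and 7.06, and 5 of 6 arrays were below every other array. Sirpa- DC held 6.39, 6.82 and 7.01, overlapping fibroblasts and lying below all 3 epithelial populations, whose arrays spanned 7.85 to 9.08. Cebpa was 3.24-fold higher in Sirpa+ DC than in the others (1.70 ± 0.13, limma, adjusted p = 1.56e-11), 4.76-fold lower in fibroblasts (-2.25 ± 0.13, adjusted p = 7.77e-14) and 2.49-fold lower in Sirpa- DC (-1.31 ± 0.13, adjusted p = 1.68e-09). The order of means was Sirpa+ DC 9.25 ± 0.34, mTEClo 8.52 ± 0.45, cTEC 8.43 ± 0.47, mTEChi 8.11 ± 0.26, Sirpa- DC 6.74 ± 0.25 and fibroblasts 5.96 ± 0.62 (SD, n = 6 each), and only the 3 epithelial neighbours did not differ beyond the spread. Sirpa+ DC exceeded Sirpa- DC by 2.51 ± 0.16 (limma, adjusted p = 1.53e-11), in a comparison with 3 of 7 genes called (5.37% of all genes), 2 higher (3.87%) and 1 lower (1.5%).

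**Figure D2:**
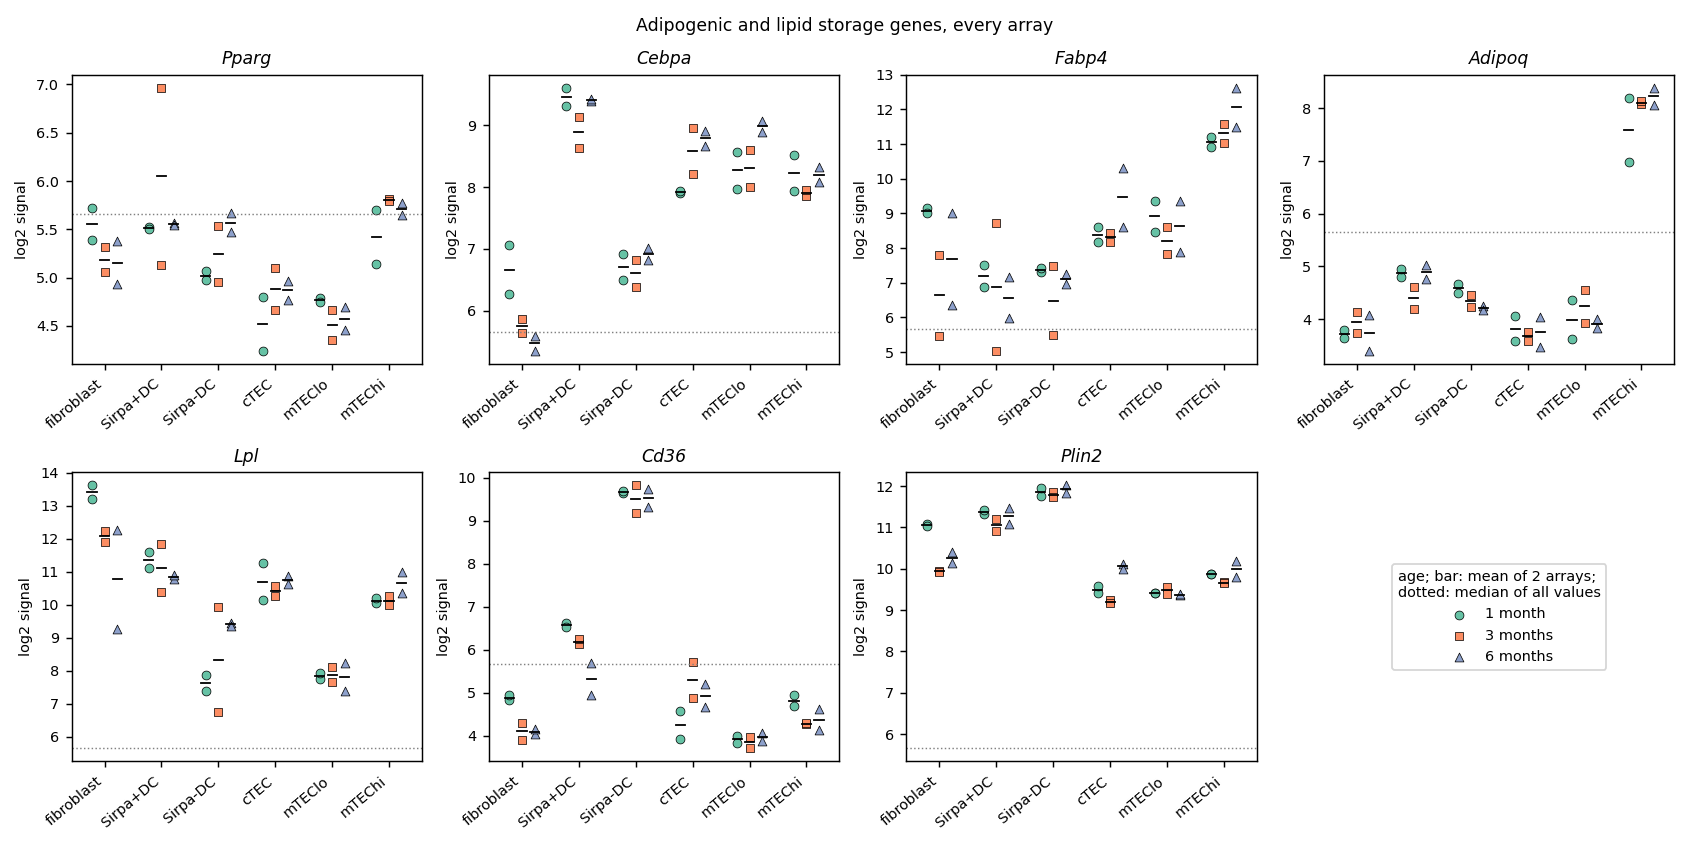
Signal of each of the 7 genes in every array (log2; 1 panel per gene with its own axis), by population and, within it, by age; short bars give the mean of the 2 arrays of an age and the dotted line the median of all values, 5.66. Adipoq and Fabp4 were higher in all 6 mTEChi arrays than in any other array, and Cd36 and Plin2 in all 6 Sirpa- DC arrays.

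Adipoq, the hormone made by mature adipocytes, was above the median of all values in 6 arrays, the 6 of mTEChi. Its signals there were 6.98 and 8.20 at 1 month, 8.07 and 8.13 at 3 months, and 8.39 and 8.05 at 6 months. Every other array of the series lay between 3.40 and 5.03, so the groups did not overlap at any age. Since those arrays were all below the median of all values, the mTEChi mean of 7.97 ± 0.50 (SD, n = 6) was set against that median, and was at least 4.98-fold higher. The signals themselves differed by 3.83 from the mean of the others (7.97 in mTEChi, 4.14 in the others) and by 3.92 from mTEClo alone (log2). The gene was tested only because mTEChi passed the filter, so these are descriptions, and the dim populations are not ordered among themselves. Fibroblasts, at 3.40, 3.76 and 4.14, and cTEC, at 3.47, 3.67 and 4.06, were called lower than the mean of the others, of which mTEChi is part.

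Fabp4, the fatty acid carrier, had the same leading population. It measured 10.91 and 11.20 in mTEChi at 1 month, 11.02 and 11.59 at 3 months, and 12.63 and 11.50 at 6 months, above every array of the other populations, which spanned 5.04 to 10.32. The difference was 12.8-fold (3.68 ± 0.41, limma, adjusted p = 2.12e-08). All 4 probe sets of Fabp4 were higher in mTEChi, by 1.5 to 3.68. Behind it came cTEC at 8.72 ± 0.81, mTEClo at 8.58 ± 0.68, fibroblasts at 7.80 ± 1.57, Sirpa- DC at 6.98 ± 0.76 and Sirpa+ DC at 6.88 ± 1.27 (SD, n = 6 each), with no neighbours that differed beyond the spread. Replicates lay far apart in some groups, such as Sirpa+ DC at 3 months, with 5.04 and 8.73. That second array was also the highest of Sirpa+ DC for Lpl (11.85) and Pparg (6.97). Its fibroblast marker mean was 6.22, against at most 5.56 in the other Sirpa+ DC arrays. The part of fibroblast RNA in these levels was not tested. Sirpa+ DC were 3.56-fold lower than the others (-1.83 ± 0.41, limma, adjusted p = 0.000456) and Sirpa- DC 3.27-fold lower (-1.71 ± 0.41, adjusted p = 0.000835). With the mean of all 4 probe sets these became -0.94 and -0.84, under 2-fold.

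Marker means of 2 cell types known for Fabp4 were higher in mTEChi than in the other epithelium, the endothelial one only narrowly against cTEC. The endothelial marker mean, without Pecam1, Emcn and Tie1, was 6.38 to 6.51 in mTEChi, against at most 6.37 in cTEC and 6.06 in mTEClo. It reached 6.87 in Sirpa- DC. Of 10 endothelial markers 5 were above the median of all values in all mTEChi arrays, and Pecam1, Cdh5, Emcn and Tie1 in none. The list did not go 1 way, since Cdh5 was above that median in at least 1 cTEC array. The macrophage marker mean was 6.86 to 7.29 in mTEChi, above fibroblasts, cTEC and mTEClo (at most 6.02) and below Sirpa+ DC (at least 9.63). Of 11 macrophage markers 7 were above the median in all mTEChi arrays, against 2 in cTEC and 2 in mTEClo, and Fcgr1, Vsig4 and Timd4 in none. The part of macrophage or endothelial RNA in the Fabp4 level of mTEChi was not tested.

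Lpl, the secreted lipase, was highest in fibroblasts. Its signals were 13.62 and 13.21 at 1 month, 12.25 and 11.90 at 3 months, and 12.27 and 9.28 at 6 months, and 5 of these 6 arrays exceeded every array of the other populations. Sirpa+ DC followed at 10.38, 11.00 and 11.85, cTEC at 10.13, 10.60 and 11.28, and mTEChi at 9.98, 10.23 and 10.98. Sirpa- DC ran from 6.75 through 8.62 to 9.93 and mTEClo from 7.40 through 7.84 to 8.25, the lowest means of the 6. Lpl was 5.34-fold higher in fibroblasts than in the others (2.42 ± 0.32, limma, adjusted p = 4.47e-07) and 2.37-fold higher in Sirpa+ DC (1.24 ± 0.32, adjusted p = 0.0019), a difference just under 2-fold (1.00, adjusted p = 0.0209) without the second 3 month Sirpa+ DC array. It was 3.81-fold lower in Sirpa- DC (-1.93 ± 0.32, limma, adjusted p = 1.22e-05) and 6.36-fold lower in mTEClo (-2.67 ± 0.32, adjusted p = 1.24e-07). mTEChi exceeded mTEClo 5.48-fold (2.46 ± 0.42, limma, adjusted p = 1.96e-05), and Sirpa+ DC exceeded Sirpa- DC 6.25-fold (2.64 ± 0.42, adjusted p = 2.69e-05). cTEC exceeded the mean of the medullary subsets 2.92-fold (1.55 ± 0.36, limma, adjusted p = 0.000848). In that comparison 3 of 7 genes were called (13.6% of all genes), 1 higher (5.4%) and 2 lower (8.24%), counting Adipoq, which passed the filter through mTEChi alone. The lower ones were Adipoq (-2.26) and Fabp4 (-1.31), and the Fabp4 call was lost without the first 1 month cTEC array (-1.24, adjusted p = 0.0518) or the first 6 month one (-1.03, 0.0962). With the thymocyte marker mean as a term the Lpl difference of cTEC was 1.20 (limma, adjusted p = 0.327). Both Lpl probe sets had fibroblasts higher, by 2.42 and 2.24.

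Cd36, the fatty acid transporter and scavenger receptor, separated the dendritic cells. Sirpa- DC measured 9.65 and 9.70 at 1 month, 9.82 and 9.18 at 3 months, and 9.33 and 9.73 at 6 months. No other array exceeded 6.62, so Sirpa- DC stood apart in all 6 arrays. Sirpa+ DC came next at 4.94, 6.19 and 6.62, while the epithelial populations and fibroblasts lay between 3.70 and 5.72, all but 1 of them below the median of all values. The difference was 28.8-fold for Sirpa- DC against the others (4.85 ± 0.13, limma, adjusted p = 2.91e-20) and 11.7-fold lower in Sirpa+ DC than in Sirpa- DC (-3.54 ± 0.16, adjusted p = 2.01e-14). The 3 probe sets of Cd36 gave 4.85, 4.91 and 2.59 for Sirpa- DC. Cd36 was lower than the mean of the others in fibroblasts (-1.41 ± 0.13), mTEClo (-1.94 ± 0.13) and mTEChi (-1.25 ± 0.13), each mean including Sirpa- DC (limma, adjusted p = 6.01e-10, 1.56e-12 and 4.14e-09).

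Plin2, the coat protein of small lipid droplets, was above the median of all values in all 36 arrays. It was highest in Sirpa- DC, at 11.73, 11.85 and 12.01, above every array of the other populations. Sirpa+ DC followed at 10.92, 11.26 and 11.47, and fibroblasts at 9.93, 10.27 and 11.07. The epithelial populations were lower: 9.65, 9.83 and 10.19 in mTEChi, 9.16, 9.49 and 10.12 in cTEC, and 9.36, 9.40 and 9.56 in mTEClo. All neighbours in this order differed except cTEC and mTEClo. Plin2 was 3.38-fold higher in Sirpa- DC than in the others (1.76 ± 0.07, limma, adjusted p = 1.08e-16), 2.02-fold higher in Sirpa+ DC (1.01 ± 0.07, adjusted p = 4.69e-12, at the edge of the 2-fold limit and under it without any of 3 of its arrays) and 2.25-fold lower in mTEClo (-1.17 ± 0.07, adjusted p = 3.75e-13). Both dendritic populations together exceeded the 3 epithelial ones in Plin2 (1.93 ± 0.06) and Cd36 (3.39 ± 0.11) and were lower in Fabp4 (-2.66 ± 0.34), 3 of 7 genes called where 24.5% of all genes were, 8.6% higher and 15.9% lower (limma, adjusted p = 7.42e-20, 1.13e-19 and 1.47e-07).

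The fibroblast differences were also fitted beside the thymocyte RNA described above. With the mean of the thymocyte markers of each array as a term in the fit, none of the 4 genes remained called in fibroblasts against the others, although each kept its direction: Lpl 1.73 (limma, adjusted p = 0.554), Cebpa -0.86 (0.342), Adipoq -1.99 (0.0522) and Cd36 -1.76 (0.0652). Fibroblast arrays and other arrays do not overlap in that mean, so the term and the population can hardly be told apart. The Adipoq call set dim fibroblast signals against a mean that includes mTEChi, the only population through which it was tested.

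With age, fibroblasts had the most calls, and all of them were lower than at 1 month. Calls with age needed an adjusted p below 0.05, and each set 2 arrays of the later age against 2 of the earlier; the 18 groups shared 1 estimate of the spread. In fibroblasts at 3 against 1 month, 2 of 7 genes were called, both lower (20.4% of all genes were called, 10.1% higher and 10.4% lower). At 6 against 1 month 4 of 7 were called, all lower (36.2% of all genes, 20.4% lower and 15.8% higher). The median of the 7 genes at 6 against 1 month was -0.80, against -0.07 over all genes. Over the 6 populations together, 3 of the 42 tests on members were called at 3 against 1 month (4.66% of all tests). At 6 against 1 month 6 of 42 were (10.3%), so that both counts were near the share of all tests. None of the calls in fibroblasts or dendritic cells was higher at the later age.

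Cebpa in fibroblasts measured 7.06 and 6.26 at 1 month, 5.87 and 5.65 at 3 months, and 5.58 and 5.35 at 6 months. Both later ages lay below both 1 month arrays, and 3 of the 4 later arrays lay at or below the median of all values. Cebpa fell 1.87-fold at 3 months (-0.91 ± 0.28, limma, adjusted p = 0.0252) and 2.29-fold at 6 months (-1.19 ± 0.28, adjusted p = 0.00211). The change at 6 months minus the mean change of the other 5 populations was -1.54 ± 0.31 (limma, adjusted p = 0.000916), where 3 of 7 genes were called (26.4% of all genes), all lower (15.6%). Without the first 1 month fibroblast array the 3 month and 6 month differences were -0.51 (adjusted p = 0.411) and -0.79 (0.0977), and with the thymocyte term they were -0.60 (0.167) and -0.64 (0.193).

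Plin2 in fibroblasts measured 11.07 and 11.03 at 1 month, 9.94 and 9.93 at 3 months, and 10.40 and 10.14 at 6 months. Replicates lay close together and no age overlapped another. Plin2 fell 2.17-fold at 3 months (-1.12 ± 0.16, limma, adjusted p = 2.84e-05) and 1.72-fold at 6 months (-0.78 ± 0.16, adjusted p = 0.000565), the 6 month call being lost in a fit of the 6 fibroblast arrays alone (adjusted p = 0.0522). Its change minus the mean change of the other populations was -0.96 ± 0.17 at 3 months (limma, adjusted p = 0.000462), 1 of 7 genes called (17.7% of all genes, 7.8% lower), and -0.91 ± 0.17 at 6 months (adjusted p = 0.000599). The 3 month fall was called under every alternative run and without any 1 array. With the thymocyte term the 6 month difference from the other populations was -0.74 (adjusted p = 0.131).

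Lpl in fibroblasts fell 6.23-fold at 6 against 1 month (-2.64 ± 0.72, limma, adjusted p = 0.00622) on the values given above. Its change minus that of the other populations was -3.01 ± 0.79 (limma, adjusted p = 0.00675). That size rests on 1 array: the second 6 month array stood at 9.28, against 12.27 in the first. Without it the differences were -1.15 (adjusted p = 0.302) and -1.52 (0.242). Without the first 1 month array they were -2.44 (0.0684) and -2.81 (0.067). At 3 months the difference was -1.34 (95% interval -2.84 to 0.15), not called, with both arrays below both 1 month arrays. The other Lpl probe set gave -2.63 at 6 months.

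Cd36 in fibroblasts was below the median of all values at every age, at 4.82 and 4.95 at 1 month, 3.91 and 4.29 at 3 months, and 4.03 and 4.15 at 6 months. It was called lower at 6 months (-0.80 ± 0.29, limma, adjusted p = 0.0319), but its other probe sets gave -0.38 and -0.19, and the call was lost without any 1 of the 1 or 6 month arrays. Pparg in fibroblasts measured 5.72 and 5.39 at 1 month, 5.32 and 5.06 at 3 months, and 4.93 and 5.38 at 6 months, with a difference of -0.40 at 6 months (95% interval -1.12 to 0.32). Fabp4 measured 9.15 and 9.02 at 1 month, 5.47 and 7.81 at 3 months, and 6.36 and 9.01 at 6 months. All 4 later arrays were below both 1 month arrays, the second 6 month array only barely (9.01 against 9.02). Replicates lay far apart, and the differences of -2.44 (adjusted p = 0.0622) and -1.40 (0.249) were not called (limma). Adipoq measured 3.79 and 3.65 at 1 month, 3.73 and 4.14 at 3 months, and 3.40 and 4.08 at 6 months, all below the median of all values. At signals this dim a change in Adipoq in fibroblasts cannot be judged in either direction.

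**Figure D3:**
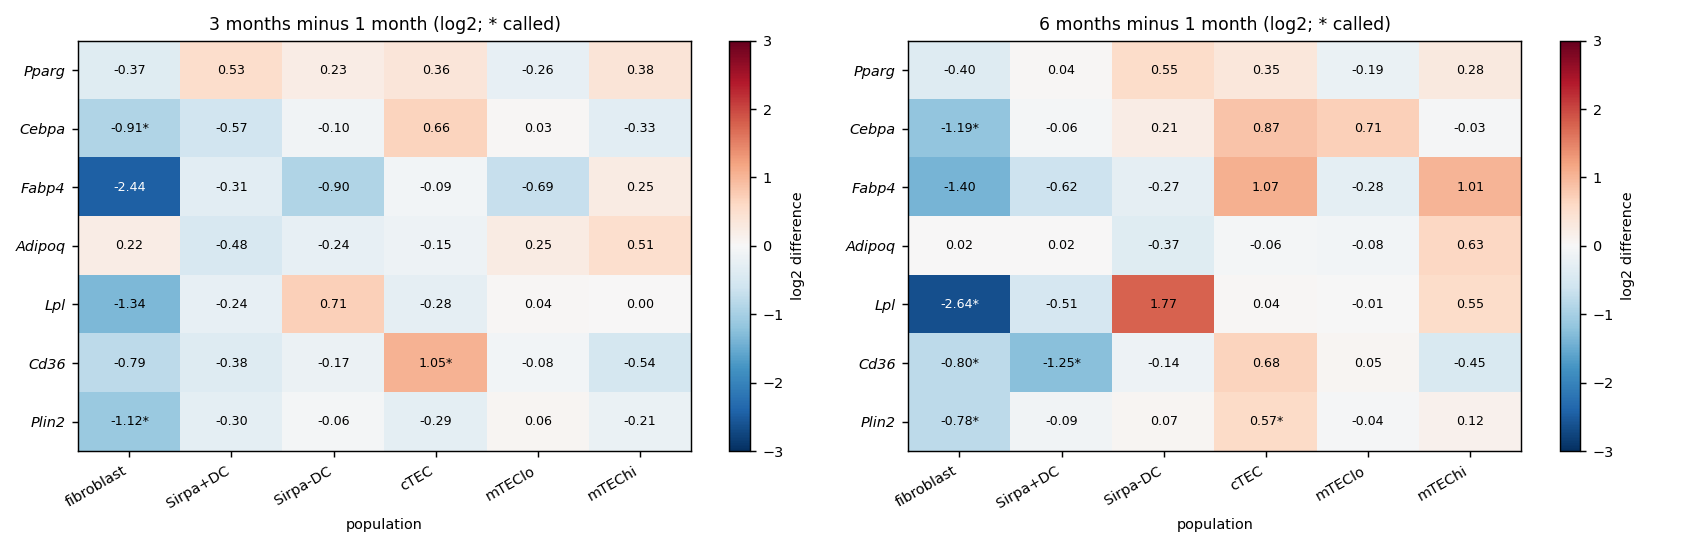
Difference of 3 months (left) and 6 months (right) from 1 month in each population (log2, 2 arrays against 2) for the 7 genes; colour and number give the difference, and an asterisk marks an adjusted p under 0.05. Fibroblasts were lower for Cebpa, Lpl, Cd36 and Plin2 at 6 months, by 0.78 to 2.64; Cd36 and Adipoq were below the median of all values in every fibroblast array.

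Marker levels differed between the same fibroblast arrays. The mean of the fibroblast markers was 12.47 and 12.32 at 1 month, 11.31 and 10.77 at 3 months, and 11.15 and 8.67 at 6 months. The mural cell mean was 10.63 and 10.12, then 9.75 and 9.12, then 9.49 and 8.67 at those ages, and the endothelial mean was 6.83 and 6.66, then 6.40 and 6.34, then 6.21 and 5.74. The thymocyte mean was 8.58 and 10.19 at 1 month, 10.16 and 10.14 at 3 months, and 10.55 and 10.95 at 6 months. At 6 against 1 month 8 of 9 fibroblast markers and 8 of 9 mural markers fell, and 9 of 13 thymocyte markers rose. The second 6 month array, where Lpl was lowest, had the lowest fibroblast, mural and endothelial means and the highest thymocyte mean of the 6. The 3′ minus 5′ log2 signal of the Gapdh and Actb controls, a measure of RNA integrity, was 3.15 and 2.37 at 1 month, 2.28 and 1.94 at 3 months, and 1.86 and 1.72 at 6 months. With that value as a term, Plin2 remained called at 6 months (-0.63, limma, adjusted p = 0.0307), while Lpl (-2.72, 0.0503) and Cebpa (-0.87, 0.0913) did not. With the thymocyte term, Plin2 (-0.67, limma, adjusted p = 0.0341) and Lpl (-2.91, 0.043) remained called and Cebpa did not. At 3 months Plin2 remained called with either term (-1.02 and -1.05). Less of these transcripts in fibroblasts and a smaller share of fibroblast RNA in the sample cannot be told apart by these values.

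**Figure D4:**
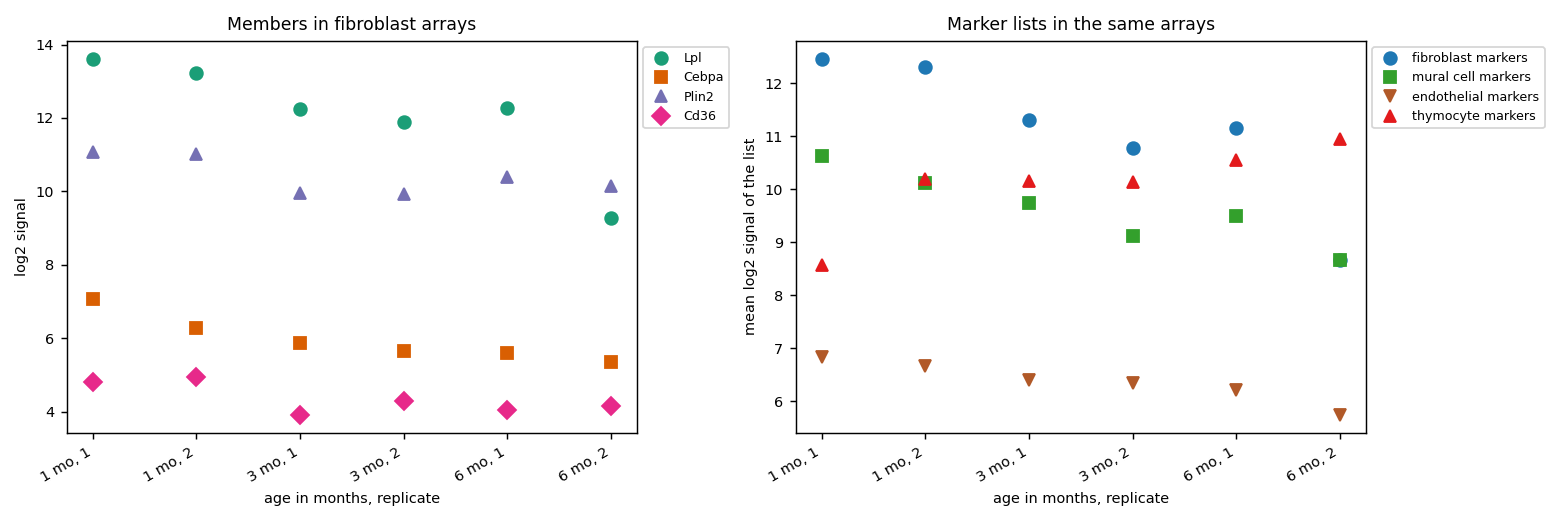
Signals of Lpl, Cebpa, Plin2 and Cd36 (left, log2) and means of 4 lists of cell type markers (right, log2) in the 6 fibroblast arrays, in order of age, with the replicate number after the age. Lpl and the fibroblast markers were lowest, at 9.28 and 8.67, in the second 6 month array, where the fibroblast and mural symbols coincide, and the thymocyte markers were highest there, at 10.95.

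Outside fibroblasts 3 differences with age were called. In cTEC at 6 against 1 month the median of the 7 genes was 0.57, against -0.07 over all genes. Of the 7, 1 was called, Plin2, and 3 had an unadjusted p under 0.05 (limma). The others there, none called, differed by 1.07 (Fabp4), 0.87 (Cebpa), 0.68 (Cd36), 0.35 (Pparg), 0.04 (Lpl) and -0.06 (Adipoq). Fabp4 in cTEC measured 8.18 and 8.60 at 1 month, and 8.61 and 10.32 at 6 months. The endothelial marker mean of cTEC arrays was 5.70 and 5.94 at 1 month, 6.11 and 6.23 at 3 months, and 6.26 and 6.37 at 6 months. Their 3′ minus 5′ signal was 2.63 and 2.43, then 2.04 and 1.94, then 1.96 and 2.04 at those ages. The part of endothelial RNA in the cTEC differences was not tested. Cd36 in Sirpa+ DC measured 6.62 and 6.52 at 1 month, 6.13 and 6.24 at 3 months, and 4.94 and 5.70 at 6 months, and was 2.38-fold lower at 6 against 1 month (-1.25 ± 0.29, limma, adjusted p = 0.0193), 1 of 7 genes called (2.06% of all genes, 0.717% lower). Its other probe sets gave -0.40 and -0.04, and with the mean of all 3 the difference was -0.56 (adjusted p = 0.151). It was -0.87 (adjusted p = 0.435) without the first 6 month array, -1.20 (0.157) without the first and -1.30 (0.0797) without the second 1 month array. Cd36 in cTEC measured 3.92 and 4.58 at 1 month, 4.88 and 5.72 at 3 months, and 4.66 and 5.19 at 6 months. It was 2.06-fold higher at 3 against 1 month (1.05 ± 0.29, limma, adjusted p = 0.0317), 1 of 7 genes (5.4% of all genes, 1.52% higher), and 1 of its 6 arrays was above the median of all values. It was not called with the thymocyte term (1.19, limma, adjusted p = 0.131), with the 3′ minus 5′ term (0.93, 0.126) or with cTEC fitted alone (1.05, 0.135). Without the second 3 month array it was 0.62 (adjusted p = 0.331), and without the first 1 month array 0.72 (0.48). Plin2 in cTEC measured 9.41 and 9.57 at 1 month, 9.24 and 9.16 at 3 months, and 10.12 and 10.004 at 6 months, and was 1.49-fold higher at 6 against 1 month (0.57 ± 0.16, limma, adjusted p = 0.0296), 1 of 7 genes (6.45% of all genes, 2.71% higher). Without any 1 of the arrays compared, the adjusted p was between 0.0551 and 0.276.

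No gene of the set was called with age in Sirpa- DC, mTEClo or mTEChi, by limma, and unadjusted p-values were under 0.05 for 0 of 7 genes at 3 months in each. At 6 months unadjusted p-values were under 0.05 for 1, 1 and 0 of 7. The shares of all genes called in those 3 populations were 0.0345%, 1.77% and 0% at 3 months, and 0.904%, 6.42% and 9.51% at 6 months. The gene with the unadjusted p in Sirpa- DC was Lpl, at 7.88 and 7.39 at 1 month, 6.75 and 9.93 at 3 months, and 9.46 and 9.36 at 6 months. Its difference at 6 months was 1.77 ± 0.72 (limma, adjusted p = 0.305), and both 6 month arrays were above both 1 month arrays. The macrophage marker mean of the same Sirpa- DC arrays was 7.96 and 6.94, then 6.70 and 8.51, then 8.58 and 8.65 at those ages. The part of macrophage RNA in this Lpl level was not tested. In mTEChi, Adipoq differed by 0.63 (95% interval -0.02 to 1.28) and Fabp4 by 1.01 (-0.88 to 2.91) at 6 against 1 month, the other Fabp4 probe sets giving 0.58, 0.03 and -1.11. Cebpa in mTEClo measured 8.57 and 7.97 at 1 month and 9.08 and 8.89 at 6 months, a difference of 0.71 that was not called. In Sirpa+ DC at 3 months no member was called (0.331% of all genes).

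In the mean of the 6 populations, 12 arrays against 12, Plin2 was lower at 3 against 1 month (-0.32 ± 0.06, limma, adjusted p = 0.00647), 1 of 7 genes (6.34% of all genes, 4.5% lower). Plin2 then differed by -1.12 in fibroblasts, -0.30 in Sirpa+ DC, -0.29 in cTEC, -0.21 in mTEChi, -0.06 in Sirpa- DC and 0.06 in mTEClo. Plin2 was higher at 6 against 3 months (0.29 ± 0.06, limma, adjusted p = 0.00149), 1 of 7 (31.5%, 15.5% higher). Its mean rose most in cTEC, from 9.20 to 10.06, and fell in mTEClo, from 9.47 to 9.37. Cd36 was lower at 6 against 1 month (-0.32 ± 0.12, limma, adjusted p = 0.035), 1 of 7 (36.6%, 21.7% lower), on the probe set used, and in both of the last comparisons 1 of 7 is a smaller share than that of all genes. Its other probe sets gave 0.35 and 0.17, of the opposite sign. Changes with age differed between populations for Plin2, Cd36 and Cebpa by a moderated F-test over 10 contrasts (F = 6.18, 4.14 and 3.88, limma, adjusted p = 0.0035, 0.0215 and 0.0275), where 15.7% of all genes were called. With the thymocyte term Plin2 alone was called. Without the first 1 month fibroblast array Cebpa had F = 2.87 (adjusted p = 0.11), and without the first 1 month cTEC array Cd36 had F = 2.83 (0.0942).

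Genes of the wider pathway were taken from 8 lists with 103 genes. The genes of the mature adipocyte that could be tested gave no call in fibroblasts. A gene could pass the filter through other populations, so those tested may be dim in fibroblasts. The 6 tested are also too few to read against the shares of all genes. Of 14 listed, 6 were bright enough to test, and at 6 against 1 month none was called by limma, with 1 at an unadjusted p under 0.05, the median being -0.06 against -0.07 over all genes. At 3 against 1 month none was called and none had an unadjusted p under 0.05. Lep (leptin), Cidec, which fuses lipid droplets, Aqp7, the glycerol channel, and Pck1 were among the 6 with a probe set too dim to test. In fibroblast arrays Lep ranged from 4.01 to 4.37 and Cidec from 3.42 to 3.90, against 3.94 to 4.49 and 3.52 to 4.62 in the other populations. Cfd and Adrb3 were not analysed here.

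Transcription factors that act before or beside Pparg and Cebpa in adipogenesis were lower in older fibroblast arrays. Of 12 adipogenic regulators, 10 fell at 6 against 1 month and none rose, with a median of -1.37 against -0.07 over all genes. Over all genes tested 20.4% were lower and 15.8% higher. For 6 months, the counts over all genes under the settings named below are given with the dependence on processing. The C/EBP factors of early adipogenesis, Cebpd and Cebpb, fell by 2.12 and 1.82, and the Krüppel-like factors Klf9 and Klf15 fell by 1.82 and 1.61 (log2). At 3 against 1 month 10.4% of all genes were lower and 10.1% higher. Of the 12 regulators 6 fell then and none rose, led by Cebpd (-1.90), Ebf2, a regulator of brown fat and of fibroblast precursors (-1.88), and Klf9 (-1.81). At 6 months 5 were called without the second 6 month array, 6 without the first 1 month array and 4 with the thymocyte term, all lower. At 3 months far fewer regulators were called without the first 1 month array, and far fewer without the second 3 month array. Each setting leaves 1 array in a group, and over all genes, too, far fewer were called lower in it. Set against the other populations, 4 of the 12 were higher in fibroblasts (8.38% of all genes) and 1 lower (9.98%). Ebf2 by 3.40, Ebf1 by 2.60 and Cebpd by 1.77 were higher and Klf5 was lower (-1.68).

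Precursor genes and those of lipid handling followed. Counts here stand beside 20.4% of all genes lower and 15.8% higher in fibroblasts at 6 against 1 month. Of 11 preadipocyte and anti-adipogenic genes, 7 fell and 2 rose in that comparison. Pi16 (-3.07), Cd34 (-3.04) and Pdgfra (-2.12) led those that fell, and Pdgfra is also 1 of the fibroblast markers above. The 2 that rose were Dpp4 (2.09) and Gata3 (1.72), so the list did not go 1 way. Gata3 was named after its value was seen, to complete the pair. Without the second 6 month array 1 of the 11 was lower and 2 higher. Of 12 fatty acid uptake and transport genes, 6 fell and 1 rose. These included the caveolar protein Cav1 (-2.19), the lipase inhibitor Angptl4 (-1.98) and the lipoprotein receptor Vldlr (-1.71), and Acsl4 rose by 1.19. Of 13 lipid droplet and lipolysis genes, 5 fell and none rose: the lipolysis inhibitor G0s2 (-2.31), the lipase activator Abhd5 (-1.76), the monoglyceride lipase Mgll (-1.24), Cideb (-0.69) and Plin5 (-0.54). Without the second 6 month array 2 of the 13 were called, and without the first 1 month array 3. Plin5 was named after its value was seen, to complete the 5.

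The remaining lists are read against the 20.4% of all genes lower and 15.8% higher in fibroblasts at 6 against 1 month, and synthesis and oxidation genes were near the share lower. Of 13 fatty acid and triglyceride synthesis genes, 3 fell, Agpat2 (-1.15), Dgat2 (-0.77) and Gpam (-0.59), and Scd2 rose by 0.64. Of 10 oxidation and PPAR target genes, Cpt2 (-0.88) and Ppard (-0.77) fell and Acadm rose by 0.60. Of 8 adipokine and insulin receptors, 4 fell and 1 rose, led by the insulin receptor substrate Irs1 (-1.96), the adiponectin-binding cadherin Cdh13 (-1.22) and Igf1r (-0.87), with the insulin receptor Insr higher by 0.74. Without the second 6 month array no gene of the synthesis or oxidation lists was called and 2 receptors were, both lower. Without the first 1 month array each of the 3 lists had 1 gene lower.

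**Figure D5:**
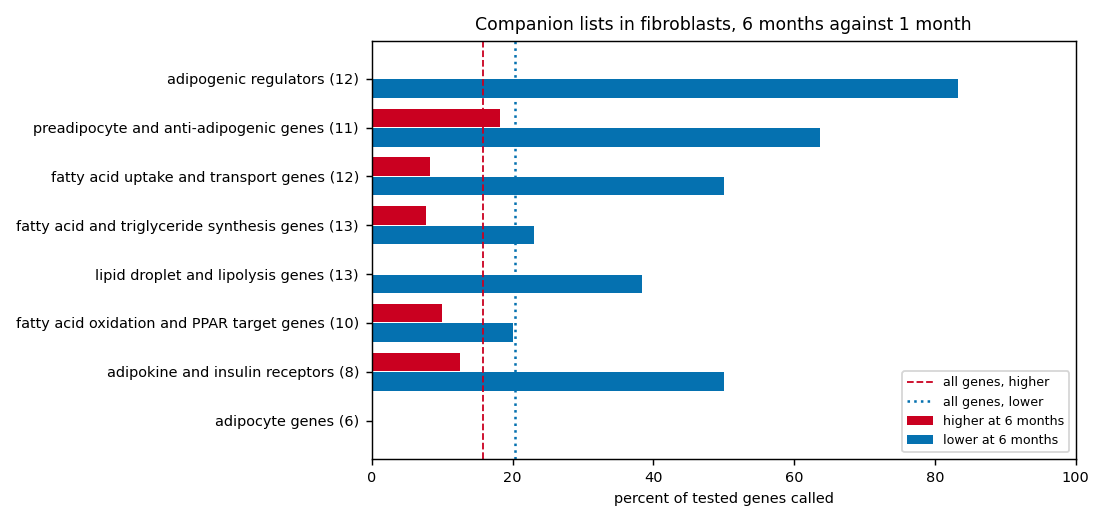
Percent of the tested genes of each of 8 lists (number tested in brackets) that were called higher (red) or lower (blue) in fibroblasts at 6 against 1 month; the dashed and dotted lines give the same for all genes tested, 15.8% higher and 20.4% lower. Adipogenic regulators had 10 of 12 lower, and the 6 adipocyte genes tested, too few to read against these lines, had none in either direction.

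Over the 18 group means, genes with the most similar pattern were found for each member. Adipoq followed Amtn (r = 0.99), Idi2 (0.99) and Gfra3 (0.98), and Fabp4 followed 1810010H24Rik (0.95), Snhg14 (0.95) and Bdnf (0.95). Cd36 followed Gcsam (0.97), Sema4f (0.97) and Gpr33 (0.96), and Plin2 followed Hsd17b11 (0.96), Stk32c (0.95) and Acvrl1 (0.95). Lpl followed Slc16a9 (0.92), Sqor (0.86) and Tpcn1 (0.82), Cebpa followed Rab20 (0.93), Gpr160 (0.92) and Plk2 (0.90), and Pparg followed Kcnn1 (0.91), Slc15a3 (0.86) and Cyba (0.85). Among the members, Cd36 and Plin2 (0.85) and Fabp4 and Adipoq (0.73) were the most alike, while Fabp4 and Plin2 (-0.53) were the least alike. These are Pearson correlations over 18 means of 2 arrays that share 6 populations, given as a description. Outside mTEChi every Adipoq signal was below the median of all values. The correlations of Adipoq, that with Fabp4 among them, therefore rest on the mTEChi groups.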

How the data were processed

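The values are the deposited log2 signals per probe set of an Affymetrix whole-genome mouse array. The authors normalized them in Gene Expression Commons, per the labels' design text, and the submitters' processing notes name GCRMA, with no version. Base 2 was read from the values, which span 2.62 to 14.58, and the depth of an array is not defined, so that the number of arrays limits the precision. Of 45101 probe sets, 64 controls, 932 with several symbols and 9160 with none were left out, and the remaining 34945 gave 18193 genes, each by its brightest probe set. Genes brighter than the overall median (5.66) on 2 or more arrays, 14495 in all, were tested with limma 3.58.1 (R 4.3.3), with 1 mean for each of 18 groups, 18 residual degrees of freedom, moderated variances with an intensity trend, and Benjamini-Hochberg adjustment over all genes tested. Intervals are 95% intervals of the moderated difference, not adjusted for the number of tests. The fit was tested on simulated data. Tables and plots used Python 3.11.15, pandas 2.3.3 and matplotlib 3.10.9.

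The genes, the 8 companion lists and the 9 marker lists were chosen with earlier results of these data known. From each companion list and comparison, up to 4 called genes with the largest absolute difference were named, with exceptions stated, and up to 3 genes most like each member. Alternatives were no filter, averaging a gene's probe sets, equal array medians, quantile normalization, no intensity trend, a replicate block, the thymocyte marker mean or the 3′ minus 5′ control signal as a term, each population fitted alone, and each of the 36 arrays left out. Plin1 was not analysed here beyond its promoter.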

Additional observations from a re-analysis of the deposited data

Results flagged for a closer look

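In 6 of 42 sets of 6 arrays (a gene in a population, all ages together) 1 array stood far from the other 5 by Dixon's criterion, which chance alone meets in about 1 set in 20. These were Pparg in Sirpa+ DC (3 months, second array, 6.97, next 5.57), Pparg in mTEChi (1 month, first array, 5.15, next 5.65) and Adipoq in the same mTEChi array (6.98, next 8.05). The others were Fabp4 in Sirpa- DC (3 months, first array, 5.48, next 6.96), Fabp4 in cTEC (6 months, second array, 10.3, next 8.61) and Plin2 in mTEClo (3 months, first array, 9.56, next 9.42).

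The change with age differed between fibroblasts and the mean of the other 5 populations for 3 genes. At 6 against 1 month the difference of changes was -1.54 for Cebpa (limma, adjusted p = 0.000916), -3.01 for Lpl (0.00675) and -0.91 for Plin2 (0.000599), and at 3 against 1 month it was -0.96 for Plin2 (0.000462). The Lpl value was -1.52 (adjusted p = 0.242) without the second 6 month fibroblast array. Across all populations the moderated F was 3.88 for Cebpa, 4.14 for Cd36 and 6.18 for Plin2.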

How the results depend on the processing

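Of 33 population differences called, 22 kept their direction and call under every alternative and without any 1 array, and of 16 age differences 3 did. The population differences include those of Adipoq, which was tested only because mTEChi passed the filter. Calls moved most with the thymocyte term. With it, the genes called in fibroblasts against the others went to 0, against 4 without it, and those whose fibroblast change at 6 against 1 month differed from the other populations to 0, against 3. With the same term the F-test called 1 gene, against 3, and the mean of the 6 populations called 2 at 3 against 1 month, 0 at 6 against 1 month and 2 at 6 against 3 months, against 1 in each. With the 3′ minus 5′ term, these 3 counts were 0, 0 and 2, the calls at 6 against 1 month within populations were 3, against 6, and cTEC against the others had 2, against 1. Quantile normalization also gave 2 in cTEC. Populations fitted alone gave 1 call at 3 months, against 3, and 1 at 6 months, against 6, from fewer samples in each fit. Cd36 at 6 against 1 month in the mean of the 6 populations turned to 0.0675 (limma, adjusted p = 0.574) with the mean of all its probe sets, and the call there was also lost with equal medians (0 called). Apart from the thymocyte term and the fit alone, whose construction is given, the cause was not tested.

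Leaving out 1 array at a time gave 2 to 5 calls at 3 months and 4 to 7 at 6 months within populations, 1 to 4 and 2 to 3 for the fibroblast change against the others, 1 to 4 for the F-test, and 0 to 1 at 6 against 1 month and 1 to 3 at 6 against 3 months in the mean. The replicate numbers were not taken to pair the samples, since not every pair of populations correlated above 0.1 at any age: 4, 10 and 3 of 15 did at 1, 3 and 6 months, so that a shared source at 3 months cannot be told from the labels. With the replicate number as a block, 4 genes were called at 3 months within populations, against 3, and 6 at 6 months, as without it. Over all genes in fibroblasts at 6 against 1 month, 2296 were higher and 2954 lower. Without the second 6 month array 848 and 1299 were, without the first 1 month array 777 and 1531, with the thymocyte term 602 and 1142, with the 3′ minus 5′ term 1353 and 1344, and with fibroblasts alone 431 and 593.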

Other observations

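Lipid genes of the wider lists were compared in epithelial populations against the mean of the other 5 (log2, limma). Over all genes 9.73% were higher in cTEC, 9.42% in mTEClo and 13.9% in mTEChi. In cTEC 5 of 12 uptake and transport genes were higher and none lower, led by Vldlr (3.58), the acyl-CoA synthetase Acsl3 (1.90), Cav1 (1.88) and Angptl4 (1.60). Of 10 oxidation and PPAR target genes 3 were higher there and none lower: the kinase Pdk4 (2.32), the coactivator Ppargc1a (1.80) and the mitochondrial carnitine transferase Cpt1a (1.38). Klf15 (3.83) and Klf9 (1.80) led the regulators that were higher in cTEC. In mTEChi 3 of 13 synthesis genes were higher and none lower, Me1 (3.00), the triglyceride synthase Dgat2 (2.41) and the desaturase Scd1 (1.44). Of 6 mature adipocyte genes tested, which is too few to read against those shares, Retn (resistin) was higher in mTEChi (1.10) and Cidea (1.74) and the glucose transporter Slc2a4 (1.29) were higher in mTEClo. The counts are descriptions, and no list was tested as a whole.

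At 6 against 1 month Cpt1a rose in mTEChi (0.71), mTEClo (0.79), Sirpa+ DC (0.73) and Sirpa- DC (0.73). In mTEChi the synthase Fasn (1.25), the carrier Fabp5 (1.13) and the droplet coat Plin3 (0.83) rose, and in mTEClo the droplet protein Cidea fell (-0.94). Over all genes in mTEChi 895 were higher and 484 lower, but 537 and 935 with quantile normalization. The genes named here were not followed under that setting. In cTEC Ppargc1a rose by 1.42 and Angptl4 fell (-1.20). Of all genes 6.17% were higher at 6 months in mTEChi, 2.55% in mTEClo, 2.71% in cTEC, 1.35% in Sirpa+ DC and 0.538% in Sirpa- DC. Lower were 3.34% in mTEChi, 3.87% in mTEClo and 3.74% in cTEC.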
